A study of Mus musculus with 8 samples.

Results

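The regions described here are the accessible regions that lie deep inside the longest genes of the mouse genome. They are the regions of the deposited atlas that were narrower than 700 bp, overlapped a protein-coding gene longer than 500 kb on an autosome, and lay more than 1 kb from the outer limits of every protein-coding gene. There were 2493 of them among the 76872 regions of the atlas (3.24%), and they fell in 216 very long genes, which make up 1.05% of the 20665 autosomal protein-coding genes. Gene limits came from RefSeq for GRCm38.p6, the build of the atlas coordinates (mm10), and the median length of the 216 genes was 735 kb.

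The atlas comes from ATAC-seq, in which a transposase inserts sequencing adapters into open DNA, on mouse induced pluripotent stem cells that carry the FUCCI2 cell cycle reporters. Of 4 groups with 2 replicates each (A and B), one held cells shaken off after 6 h in nocodazole at 200 ng/ml, a spindle poison that holds cells in mitosis. In the released groups, cells so arrested were given 1 h or 3 h of release, and the asynchronous group was left untreated. All 8 libraries came from the same clonal line, so they stand for 1 clone, grown on irradiated feeder cells in serum, LIF and inhibitors of the kinases MEK and GSK3, with 50000 cells per library. The deposited atlas listed only positions, without any value for a single library. The values below therefore describe where chromatin was open somewhere in the series, the groups were not compared, the depth behind each region is unknown, and the RNA or protein markers of the cell type could not be checked. Intervals are 95% intervals of the counts and cover counting error only, since regions and genes of 1 list are not replicates.

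Very long genes owe most of their length to introns, and many of them encode adhesion molecules, receptors and channels of neurons. Open regions inside introns can be enhancers, insulator sites or alternative promoters, and several very long genes have internal promoters from which shorter transcripts start far downstream of the outermost start. Very long genes also take longer to transcribe than other genes, and several coincide with common fragile sites, chromosomal intervals that break under replication stress.

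Some of the regions lay on annotated internal starts of these genes, and the sequences of 9 such starts are printed here. The genes Ank2, Dpp6 and Frmd4a are shown because each had more than 1 internal start that was touched by a region and lay more than 50 kb inside the gene. Ank2 encodes ankyrin-B, which links membrane proteins to the spectrin skeleton, Dpp6 an auxiliary subunit of Kv4 potassium channels, and Frmd4a a FERM domain scaffold of cell polarity. Nav2, a neuron navigator protein that binds microtubules, and Etl4, the sickle tail gene needed for intervertebral discs, are shown because they were among the genes with the highest density of regions. Foxp1, a forkhead transcription factor, is shown for its high number of CpG dinucleotides. Each line gives the 250 bases before the start, 5′ to 3′ on the strand of the gene, from RefSeq start windows for GRCm38.p6. Capitals mark the bases inside the accessible region.
Ank2 start at 91.3 kb: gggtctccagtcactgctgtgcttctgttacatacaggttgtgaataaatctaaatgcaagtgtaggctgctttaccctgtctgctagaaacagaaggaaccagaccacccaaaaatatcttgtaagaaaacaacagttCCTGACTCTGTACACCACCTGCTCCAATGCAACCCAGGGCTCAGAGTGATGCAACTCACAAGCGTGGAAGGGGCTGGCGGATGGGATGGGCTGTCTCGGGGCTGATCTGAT
Ank2 start at 502 kb: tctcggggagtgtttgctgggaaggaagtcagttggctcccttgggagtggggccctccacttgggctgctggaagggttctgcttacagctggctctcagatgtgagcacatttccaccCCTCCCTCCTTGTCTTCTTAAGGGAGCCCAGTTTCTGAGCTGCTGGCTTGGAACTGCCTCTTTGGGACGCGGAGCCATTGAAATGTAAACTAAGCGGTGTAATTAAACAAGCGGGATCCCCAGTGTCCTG
Dpp6 start at 232 kb: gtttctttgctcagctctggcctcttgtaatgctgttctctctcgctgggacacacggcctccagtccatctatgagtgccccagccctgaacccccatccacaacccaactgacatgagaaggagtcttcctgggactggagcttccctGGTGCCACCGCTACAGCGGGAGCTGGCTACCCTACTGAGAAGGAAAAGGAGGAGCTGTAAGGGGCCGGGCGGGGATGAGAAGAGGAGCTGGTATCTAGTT
Dpp6 start at 445 kb: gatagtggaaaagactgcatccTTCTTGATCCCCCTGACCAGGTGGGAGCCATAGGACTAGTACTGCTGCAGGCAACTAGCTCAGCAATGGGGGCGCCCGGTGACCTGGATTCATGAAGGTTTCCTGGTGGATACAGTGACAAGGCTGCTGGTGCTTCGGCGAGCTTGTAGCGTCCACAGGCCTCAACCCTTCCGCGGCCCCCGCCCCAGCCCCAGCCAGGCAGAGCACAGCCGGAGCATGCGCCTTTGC
Frmd4a start at 383 kb: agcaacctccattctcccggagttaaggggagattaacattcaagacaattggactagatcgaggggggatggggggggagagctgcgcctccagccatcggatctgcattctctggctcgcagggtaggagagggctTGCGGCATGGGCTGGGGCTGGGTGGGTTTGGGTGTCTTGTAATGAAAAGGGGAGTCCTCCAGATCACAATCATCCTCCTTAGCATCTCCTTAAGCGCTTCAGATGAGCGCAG
Frmd4a start at 542 kb: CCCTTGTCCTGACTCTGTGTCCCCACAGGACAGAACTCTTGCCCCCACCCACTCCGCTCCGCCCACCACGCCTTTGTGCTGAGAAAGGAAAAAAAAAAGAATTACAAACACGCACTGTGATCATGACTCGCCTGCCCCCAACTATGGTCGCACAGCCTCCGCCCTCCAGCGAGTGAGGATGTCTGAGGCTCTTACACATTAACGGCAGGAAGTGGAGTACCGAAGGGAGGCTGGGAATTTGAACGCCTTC
Nav2 start at 287 kb: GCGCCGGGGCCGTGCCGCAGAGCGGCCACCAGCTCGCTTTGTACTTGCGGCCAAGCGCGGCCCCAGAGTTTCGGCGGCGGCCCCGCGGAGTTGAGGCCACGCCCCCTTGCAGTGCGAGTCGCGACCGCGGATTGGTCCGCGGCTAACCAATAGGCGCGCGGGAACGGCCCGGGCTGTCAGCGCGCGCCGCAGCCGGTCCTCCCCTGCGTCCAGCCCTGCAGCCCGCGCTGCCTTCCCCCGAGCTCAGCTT
Etl4 start at 609 kb: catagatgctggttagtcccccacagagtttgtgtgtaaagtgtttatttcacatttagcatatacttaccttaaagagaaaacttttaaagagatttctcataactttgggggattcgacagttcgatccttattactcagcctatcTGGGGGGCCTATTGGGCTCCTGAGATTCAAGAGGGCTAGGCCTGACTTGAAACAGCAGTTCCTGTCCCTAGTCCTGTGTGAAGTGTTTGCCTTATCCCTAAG
Foxp1 start at 494 kb: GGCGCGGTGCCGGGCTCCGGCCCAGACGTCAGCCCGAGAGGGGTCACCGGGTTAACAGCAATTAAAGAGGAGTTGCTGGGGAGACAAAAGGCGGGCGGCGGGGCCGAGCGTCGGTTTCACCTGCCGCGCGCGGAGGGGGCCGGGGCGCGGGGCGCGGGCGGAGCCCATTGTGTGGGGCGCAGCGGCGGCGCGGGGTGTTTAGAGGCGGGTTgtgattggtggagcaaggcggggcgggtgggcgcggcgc

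The first Ank2 line is at chr3:127409059-127409308 on the reverse strand, 91.3 kb inside the gene, and was touched by a region of 472 bp. The second Ank2 line is at chr3:126998453-126998702 on the reverse strand, 502 kb inside, with a region of 600 bp. The first Dpp6 line is at chr5:27048949-27049198 on the forward strand, 232 kb inside, with a region of 297 bp, and the second is at chr5:27261685-27261934, 445 kb inside, with a region of 315 bp. For Frmd4a, the lines are at chr2:4400726-4400975 and chr2:4559504-4559753 on the forward strand, 383 and 542 kb inside, with regions of 194 and 510 bp. The Nav2 line, at chr7:49245939-49246188 on the forward strand, lay wholly inside a region of 633 bp, 287 kb into the gene. The Etl4 line, at chr2:20519263-20519512 on the forward strand, lay 609 kb into the gene and met a region of 699 bp, just under the width limit. The Foxp1 line, at chr6:99028299-99028548 on the reverse strand, lay 494 kb into the gene and met a region of 557 bp.

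The printed starts ranged widely in base composition. GC content was 74.4% in the Nav2 line and 74.0% in the Foxp1 line, with 36 and 34 CpG dinucleotides, against 43.2% and 2 CpG dinucleotides in the Etl4 line. The GC box GGGCGG, searched on both strands, occurred 3 times in the Foxp1 line, 2 times in the second Frmd4a line and 1 time in each Dpp6 line. The Nav2 line held no GC box in these letters and 2 copies of the CCAAT box, searched as CCAAT on both strands.

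Over all genes, internal starts were touched far more often than the rest of the gene body. The reference tables held 132 start windows, each of 300 bases (250 before the start and 50 after), that lay wholly inside the length searched, in 81 genes. Of these, 36 (27.3%, Wilson interval 20.4 to 35.4%) touched a region of the set, in 32 genes, and 12 more touched a region of 700 bp or wider. For comparison, 0.787% of all 300-base positions in the length searched touched a region of the set. The share was 27.9% (29 of 104) for starts more than 50 kb inside the gene and 25% (7 of 28) for those nearer its outer start. At the outermost starts, 89 of 136 windows (65.4%) touched a region of the atlas. The start windows of other genes that lie inside very long genes were touched in 12 of 270 cases (4.44%), where the rule leaves out regions next to the limits of protein-coding genes.

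Internal starts with a region were richer in GC and CpG than those without. Their 36 windows had a median GC content of 59.0% and a median of 12 CpG dinucleotides, against 47.8% and 6 in the 84 windows that touched no region. The medians were 52.7% and 7 over all 32851 start windows of the table, and 67% and 25 at the outermost starts with a region. The GC box occurred in 18 of the 36 windows with a region (50%) and in 14 of the 84 without (16.7%), against 35.7% of all start windows. The TATA box, searched as TATAAA, occurred in 1 of 36 and 10 of 84 windows, against 13.6% of all, and the E-box CACGTG in 2 of 36 and 2 of 84, against 7.15%. CCAAT occurred in 12 of 36 and 31 of 84, against 37.4%. The octamer ATTTGCAT, bound by POU factors, occurred in 1 window of each set, against 1.74% of all. All motifs were searched on both strands, no motif contains another, and GGGCGG and CACGTG each contain a CpG, so their counts follow CpG content in part. The regions at internal starts were also wider, with a median of 427.5 bp against 234 bp for the rest. A wider region is more likely to touch a window, and the part of this in the difference was not tested. The regions at internal starts made up 1.44% of the set, and with the starts of other genes, 47 of the 2493 regions touched a start window. Whether the other regions lay in introns or exons, and their sequence, was not analysed here.

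Very long genes held fewer accessible regions per length than shorter protein-coding genes or the DNA between protein-coding genes. Between genes here means outside every protein-coding gene, so this DNA takes in long noncoding RNA genes and pseudogenes. In the 179 Mb in which a region of the set could lie, there were 13.9 regions per Mb (13.4 to 14.5). The same width limit and distance from gene limits gave 29.6 per Mb inside shorter protein-coding genes (22582 regions in 763 Mb) and 20.7 per Mb between genes (29479 regions). The density in very long genes was 0.470 times that in shorter genes (0.451 to 0.490) and 0.672 times that between genes (0.644 to 0.700). The regions covered 0.378% of the searched length of very long genes, against 0.774% in shorter genes and 0.556% between genes.

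The low density continued a fall with gene length. Inside genes of up to 10 kb there were 44.1 regions per Mb (41.0 to 47.4), in genes of 100 to 200 kb 28.0 (27.2 to 28.8), and in genes of 300 to 500 kb 18.5 (17.8 to 19.3), where a region in several genes counted with the longest. The classes differ in distance from gene limits, since short genes lie near them throughout. Within 10 kb of the start, 169 very long genes of known strand held 46.7 per Mb (36.5 to 58.9). The part of distance in the fall was not tested. Among the very long genes, the 111 of 500 to 750 kb held 16.1 per Mb (15.1 to 17.1) and the 50 of 750 to 1000 kb held 15.1 (13.9 to 16.3), with overlapping intervals. The 55 genes longer than 1000 kb held 11.3 per Mb (10.5 to 12.1), an interval below those of both other classes. These intervals leave out the spread between genes, which was larger than counting error, as described below. Whether the classes differ beyond that spread was not tested. From gene to gene, however, length was only weakly related to density (Pearson r = -0.17, Spearman coefficient = -0.17 across 216 genes, which are not independent replicates).

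**Figure D1:**
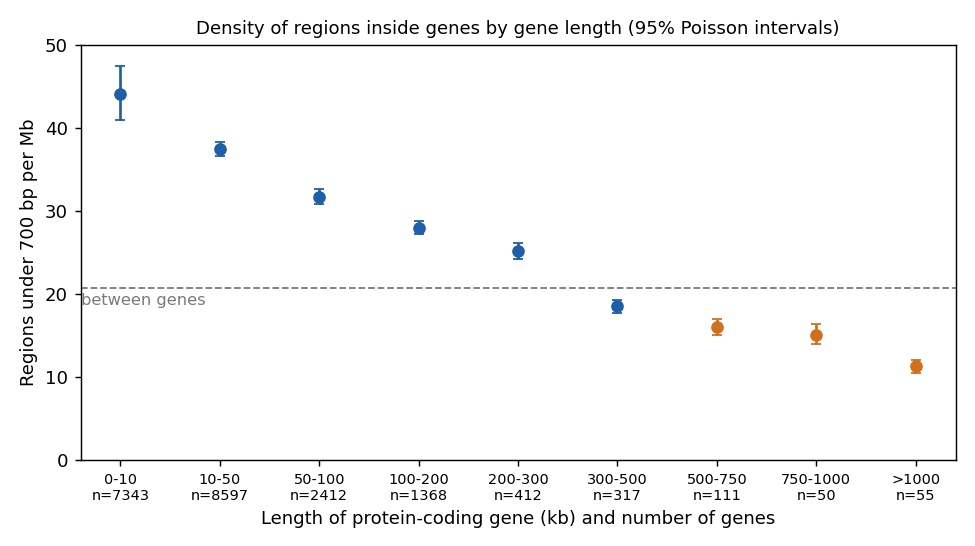
Regions under 700 bp per Mb inside protein-coding genes (vertical axis) by gene length in kb (horizontal axis), with 95% Poisson intervals. Orange points are genes over 500 kb, and the dashed line is the density between protein-coding genes. Density falls at each step, from 44.1 per Mb in genes of up to 10 kb to 11.3 per Mb in genes over 1000 kb, and crosses the density between genes (20.7 per Mb) in the class of 300 to 500 kb.

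The regions that were present were not narrower than elsewhere. They had a median width of 236 bp, with quartiles of 140 and 370 bp, while the median was 220 bp inside shorter genes and 229 bp between genes. Regions exactly 73 bp wide, the narrowest in the atlas, made up 3.85% (3.16 to 4.68%), against 5.18% (4.90 to 5.47%) in shorter genes and 4.69% (4.46 to 4.94%) between genes. In the same stretches of the very long genes, 236 further regions were 700 bp or wider, 8.65% of all regions there (7.65 to 9.76%), against 6.72% in shorter genes (6.42 to 7.05%) and 7.73% between genes (7.44 to 8.02%). Median width rose across the classes of gene length from 199 bp in genes of up to 10 kb to 244 bp in genes over 1000 kb.

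Density differed widely between the very long genes. The median gene held 12.3 regions per Mb (quartiles 8.51 and 18.5) and 10 regions in all, with a mean of 11.9 ± 7.97 regions (SD over 216 genes). The range ran from 0 in Fstl5 to 55.7 per Mb in Etl4. The squared deviations of the genes' counts from the shared density were 5.63 times those of counting error alone, or 4.70 times without 4 genes with predicted symbols. The interval lay wholly above the shared density in 28 genes and wholly below it in 26. Against the density inside shorter genes, it lay wholly below in 153 genes and wholly above in 7. Both counts of genes above include Gm38667, Gm38666 and Gm37013, which overlap one another and share the same 37 regions. The 22 genes with the most regions, leaving out predicted genes, held 605 of the 2493 regions (24.3%).

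**Figure D2:**
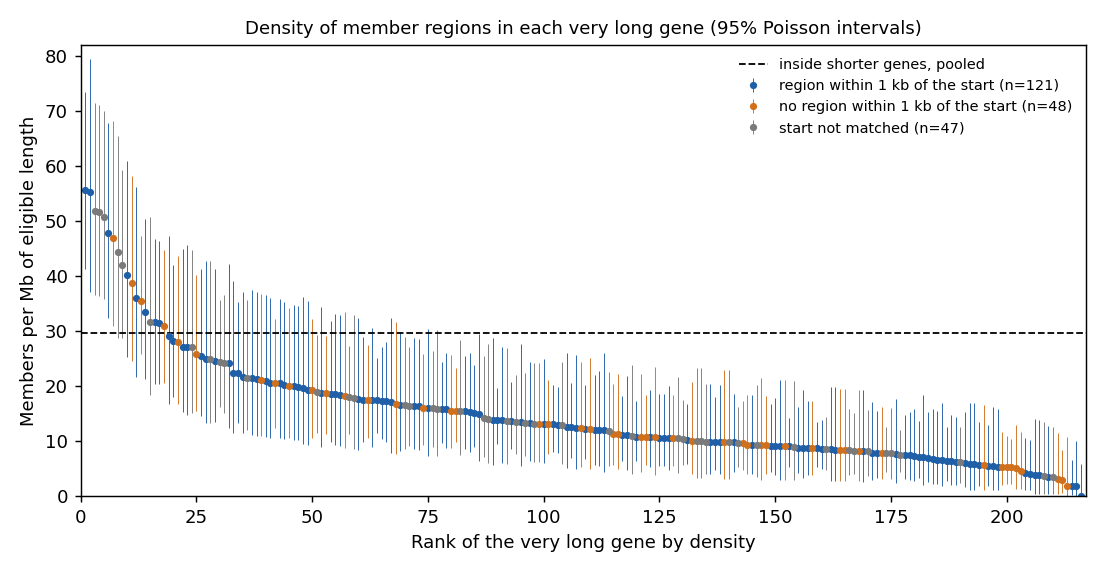
Regions per Mb in each of the 216 very long genes (vertical axis) by rank of density (horizontal axis), with 95% Poisson intervals; colours show whether the atlas had a region within 1 kb of the gene's start, and the dashed line is the pooled density inside shorter genes. A small group of genes stands above 30 per Mb (18 genes, among them Gm38667, Gm38666 and Gm37013, which share the same locus). Most genes lie under the dashed line, and genes with and without a region at the start are spread over all ranks.

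The genes of highest density had varied functions. Etl4, at chr2:19910207-20810535, held 50 regions (55.7 per Mb, 41.3 to 73.4), of which 38 lay in the part of the gene nearer its far end. St6galnac3, which encodes a sialyltransferase, held 29 (55.3 per Mb, 37.0 to 79.4). Nav2 held 31 (47.8 per Mb) and Ank2 27 (46.8 per Mb). Smyd3, a lysine methyltransferase gene, held 25 (44.3 per Mb), Arhgap26, which encodes a GTPase-activating protein, 32 (42.0 per Mb), and Pard3, a scaffold of the cell polarity complex, 22 (40.2 per Mb). The next were Frmd4a with 38.7 per Mb and Syne1, the nesprin-1 gene that ties the nuclear envelope to the cytoskeleton, with 36.0. Pde4d, a cyclic AMP phosphodiesterase gene, followed with 46 regions over 1302 kb (35.4 per Mb, 25.9 to 47.2). The order within this group is loose, since the interval of Etl4 overlapped those of 27 other genes.

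The same rank list included 3 predicted genes, Gm38667, Gm38666 and Gm37013, with 51.8, 51.5 and 50.8 regions per Mb. They overlap one another, share the same 37 regions, and contain 54 protocadherin genes in their span, so they count as 1 locus rather than 3. Schip1 and Iqschfp overlap in the same way and share 12 regions. In all, 49 of the 2493 regions lay in more than 1 very long gene.

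At the other end, some genes of over 500 kb held almost no open region narrower than 700 bp away from their limits. Fstl5, which encodes a follistatin-like secreted protein, held 0 of the set in 636 kb, with an interval of up to 5.82 per Mb, and the only atlas region it overlapped was 670 bp wide and lay at its start. B3galt1, a galactosyltransferase gene, held 1 region (1.80 per Mb), and Skint5, of a family of immunoglobulin-like proteins of skin and thymus, held 1 (1.92 per Mb). Nrg3, a ligand of the receptor ErbB4, held 2 in 1108 kb (1.81 per Mb, 0.220 to 6.56), at chr14:38672695-38673028 and chr14:38746779-38746858. Lrmda, named for its role in melanocyte differentiation, held 3 (2.90 per Mb), and Lama2, the laminin alpha-2 gene of muscle basement membrane, held 2 (3.16 per Mb). Csmd2, Zfp804b, the transcription factor gene Foxp2 and the splicing regulator gene Khdrbs2 followed, each with 2 regions and 3.48, 3.51, 3.71 and 3.82 per Mb. Without the width limit, density was 3.60 per Mb in B3galt1, 2.72 in Nrg3, 3.87 in Lrmda, 5.22 in Csmd2 and 5.27 in Zfp804b. It was unchanged in the other genes named here. Of these 10 sparsest genes, Nrg3, B3galt1, Fstl5, Zfp804b and Khdrbs2 had an atlas region at their start, and Skint5, Lrmda and Lama2 had none.

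The longest genes had intermediate or low densities. Ptprd, a receptor phosphatase gene of 2271 kb, held 17 regions (7.49 per Mb, 4.37 to 12.0). Cntnap2, which encodes the neuronal adhesion protein Caspr2, held 31 in 2241 kb (13.8 per Mb, 9.41 to 19.6). Lsamp, a neural adhesion gene of the IgLON family, held 19 (8.67 per Mb), Lrp1b, of the LDL receptor family, 16 (7.78 per Mb), and Macrod2, an ADP-ribosyl hydrolase gene, 18 (9.04 per Mb). The intervals of these 5 genes overlap.

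By role, the lists of adhesion molecules, receptors and channels had medians below that of all very long genes. The lists of axon guidance, cytoskeletal, chromatin and enzyme genes had medians above it. Several lists lay near the even split that a median gives. Above it were 9 of 19 junction genes, 8 of 16 growth factor and receptor genes, and 10 of 19 enzyme genes. The split was less even in others, such as 18 of 27 signalling genes and 8 of 21 receptor and channel genes. The lists were written from textbook knowledge, cover 160 of the 216 genes, and share 26 genes, so their medians are descriptions. The 29 synaptic and neural adhesion genes had a median of 10.8 regions per Mb, from 3.48 in Csmd2 to 27.1 in Kirrel3, and 12 of them exceeded the median of all genes. The 21 genes of neurotransmitter receptors and ion channels had a median of 10.1, from 3.90 in Kcnd2, which encodes the channel subunit Kv4.2, to 31.0 in Dpp6. The 19 cadherins, catenins and junction scaffolds had 11.9, from 3.99 in Pard3b to 40.2 in Pard3. Growth factor and receptor genes (16 measured) had 12.2, from 1.81 in Nrg3 to 33.5 in the receptor phosphatase gene Ptprg, and the 26 fragile site genes had 10.96 and were lowest in Pard3b, at 3.99. The 3 RNA-binding protein genes had 9.36, with Rbfox1 highest at 13.1 and Khdrbs2 lowest. The median of all genes, 12.3, was exceeded by 8 of the 21 receptor and channel genes and 9 of the 19 junction genes. It was also exceeded by 8 of the 16 growth factor and receptor genes, 12 of the 26 fragile site genes and 1 RNA-binding gene.

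Higher medians were found for 9 axon guidance genes (14.01, from 8.21 in the netrin receptor gene Dcc to 47.8 in Nav2) and 27 genes of intracellular signalling, trafficking and the cytoskeleton (16.0, from 5.34 in Dab1, the adaptor of reelin signalling, to 46.8 in Ank2). The 17 transcription factor and chromatin genes had 16.1, from 3.51 in Zfp804b to 44.3 in Smyd3, and the 19 enzyme and general genes 16.4, from 5.58 in Spag16, a protein of the ciliary axoneme, to 55.3 in St6galnac3. In these lists, in the order given, 5, 18, 10 and 10 genes exceeded the median of all genes. In each list the range was wider than the differences between the medians of the lists. Gene length differed between lists as well, with medians of 583 kb for the signalling list and 969 kb for the synaptic adhesion list. The density around the genes differed too, with medians of 25.7 and 14.3 per Mb in the flanks described below, and the part of either in the order of the lists was not tested.

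**Figure D3:**
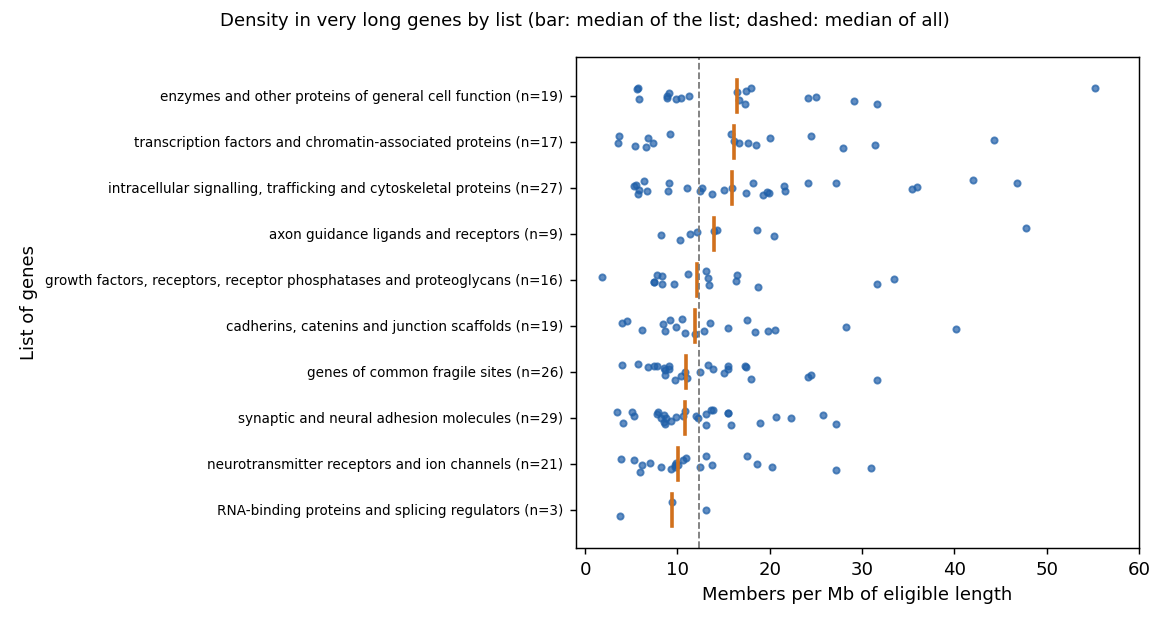
Regions per Mb in each very long gene (horizontal axis), with genes grouped by list (vertical axis, n is the number measured); orange bars are list medians and the dashed line is the median of all 216 genes. The list medians run from 9.36 to 16.4 per Mb, while genes within a list such as the cytoskeletal and signalling list span 5.34 to 46.8 per Mb.

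Some genes with like symbols differed widely. Among 30 sets of genes that share the letters of their symbol (68 genes), which need not be related, the intervals of the highest and lowest gene did not overlap in 5 sets and overlapped in the others. The set with the largest ratio was that of the polarity genes, with 40.2 per Mb in Pard3 (25.2 to 60.9) and 3.99 in Pard3b (1.09 to 10.2), a ratio of 10.1, although both had a region at their start. Pde4d held 35.4 per Mb and Pde4b 5.79 (1.19 to 16.9). Dpp6 held 31.0 per Mb (20.6 to 44.8) and Dpp10, which encodes another Kv4 subunit, 5.29 (2.28 to 10.4), and neither had a region at its start. Nav2 held 47.8 and Nav3 14.2 per Mb, and Arhgap26 held 42.0 and Arhgap15 12.4. Foxp1 and Foxp2, at 18.5 (9.22 to 33.1) and 3.71 (0.450 to 13.4) per Mb, had overlapping intervals, and the members of sets such as Sox5 and Sox6 (15.8 and 17.6) or Gpc5 and Gpc6 (11.2 and 13.3) lay close together. These pairs were picked out after their values were seen.

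The surroundings of a very long gene were usually denser than its inside. Within 500 kb of the gene and outside very long genes, the median was 20.5 regions per Mb (quartiles 14.2 and 28.8). These flanks take in shorter protein-coding genes as well as the DNA between genes, which held 29.6 and 20.7 per Mb over all autosomes. The flank density exceeded the density inside the gene for 159 of the 216 genes. Inside and outside were weakly related across genes (Pearson r = 0.35, Spearman coefficient = 0.33, n = 216, with neighbouring genes sharing flanks). Ank2, for example, had 46.8 per Mb inside and 35.2 around it, and Nrg3 had 1.81 inside and 10.02 around it. Pard3 and Pard3b had similar flanks, of 34.5 and 30.3 per Mb. Csmd2 and Lrmda, with 3.48 and 2.90 per Mb inside, lay in dense surroundings of 35.3 and 34.0 per Mb.

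The density inside the gene was about the same whether or not its start held a region. The strand was matched for 169 genes, of which 121 (71.6%) had an atlas region within 1 kb of the start and 6 (3.55%) had one within 1 kb of the far end. Genes with a region at the start held 13.8 regions per Mb and those without 13.7 (ratio 1.01, 0.911 to 1.11). The medians over genes were 12.5 and 10.8 per Mb, and the quartiles overlapped (8.23 to 18.6 and 8.36 to 17.7).

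Along the genes, density was highest next to the start and then rose slowly towards the far end. Within 10 kb of the start, beyond the first 1 kb, which the rule leaves out, the 169 genes held 71 regions, or 46.7 per Mb (36.5 to 58.9). This fell from 155 per Mb up to 2 kb (26 regions) to 41.4 from 2 to 5 kb and 28.4 from 5 to 10 kb. From 10 to 25 kb the density was 8.69 per Mb (5.45 to 13.2), a ratio of 5.38 between the nearer and farther stretch (3.29 to 9.11). In the broader stretches from 25 to 400 kb it was 11.8 to 13.1 per Mb, with 10.9 (8.78 to 13.4) in the finer stretch from 100 to 150 kb, and it was 15.7 (13.9 to 17.7) from 400 to 500 kb. The high density near the start was present in the 48 genes without a region at the start itself (39.4 per Mb, 22.9 to 63.0) as in the 121 with one (49.6, 37.3 to 64.8). Only 7 of the 71 regions touched an internal start window.

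At the far end there was no such spike. The density was 20.5 per Mb (13.9 to 29.0) within 10 kb of the far end, 20.6 from 25 to 50 kb, 17.99 from 50 to 100 kb, and 14.5 (12.7 to 16.4) from 200 to 300 kb. Divided into 10 equal stretches of gene length, the first held 15.4 per Mb, the third 9.85 (8.28 to 11.6) and the last 19.0 (16.8 to 21.5). The part of the gene from its midpoint to its far end held 1087 regions and the part from its start to the midpoint 850, so that 56.1% (53.9 to 58.3%) lay nearer the far end. More regions lay nearer the far end in 96 genes and nearer the start in 56, with equal numbers in 17. Etl4 (38 of 50), Pde4d (32 of 46) and Cntnap2 (26 of 31) were among those weighted to the far end, and without these 3 genes the share was 54.8%. Ank2 went the other way, with 21 of 27 regions nearer its start.

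Genes of 300 to 500 kb were denser than the very long genes beyond 10 kb behind the start, but not nearer to it. The 236 such genes with a known strand held 31.7 per Mb (24.6 to 40.2) within 10 kb of the start, below the 46.7 of the very long genes with overlapping intervals, and 21.0 (16.5 to 26.3) from 10 to 25 kb, an interval above that of the very long genes in that stretch. At 25 to 50 kb they held 18.7 (15.4 to 22.5), against 12.1 (8.996 to 15.9), with intervals that overlap slightly. The intervals were apart again from 50 to 100 kb, at 23.7 (21.0 to 26.7) against 13.1 (10.8 to 15.8). They were also apart from 100 to 150 kb, at 18.7 (16.4 to 21.4) against 10.9 (8.78 to 13.4). All these intervals leave out the spread between genes. Near the far end the intervals of both classes overlapped, with 22.6 (17.96 to 28.2) and 19.3 (14.3 to 25.6) per Mb from 10 to 25 kb. Over all 216 genes and both limits, density within 100 kb of a limit was 1.40 times that deeper inside (1.29 to 1.52), and the outermost 20% at either limit held 1.18 times the density of the central 20% (1.06 to 1.31). Here a region in several very long genes counted once for each of them. Without predicted genes the ratios were 1.37 and 1.16.

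**Figure D4:**
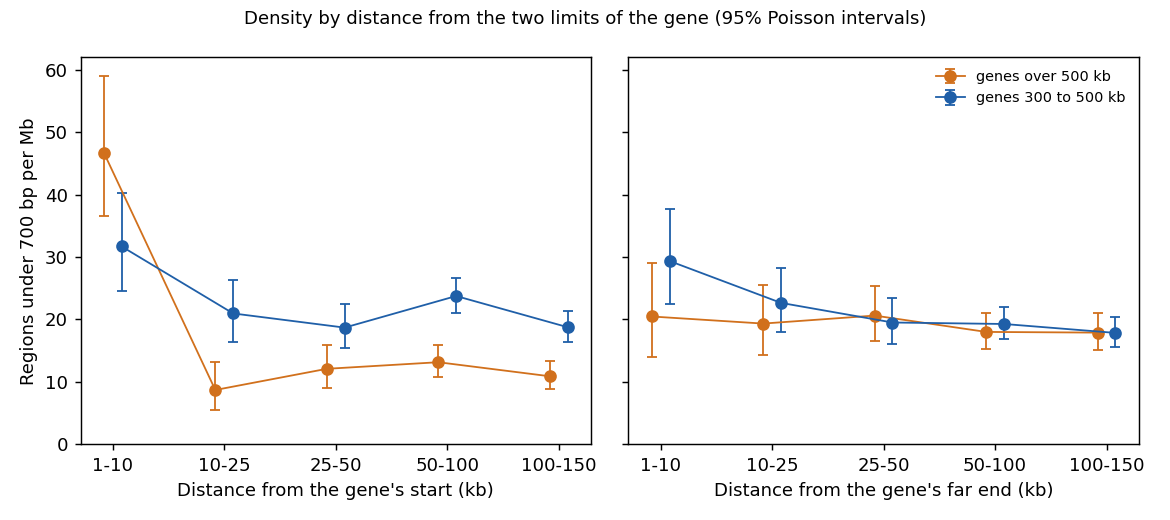
Regions under 700 bp per Mb (vertical axis) by distance in kb from the gene's start (left) and far end (right), for 169 genes over 500 kb (orange) and 236 genes of 300 to 500 kb (blue), with 95% Poisson intervals. In the very long genes the density drops from 46.7 to 8.69 per Mb behind the start, below the shorter class, while at the far end the classes overlap near 20 per Mb.

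The regions were both sparse and uneven. The nearest other atlas region was a median of 11.6 kb away, against 5.21 kb inside shorter genes and 6.14 kb between genes. Of the set, 16.8% lay more than 50 kb from any other region, against 3.33% in shorter genes and 9.13% between genes, while 34.0% had a neighbour within 5 kb, against 49.0% and 45.5%. In whole windows of 100 kb laid inside the genes (1705 windows) there were 1.34 regions on average, and the variance was 1.87 times the mean, where 1 is the value for counts without clustering. Within genes, with each gene's own mean removed, the ratio was 1.52. No region was found in 36.7% of the windows, and the 4.46% with 5 or more regions held 20.5% of the regions.

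The 5 most isolated regions lay in Lsamp, Lrp1b, Lingo2 and Dpp10. The farthest from any other was a region of 134 bp in Lsamp, at chr16:40292607-40292740, 307 kb from its nearest neighbour. In Lrp1b, a region of 409 bp at chr2:41521569-41521977 lay 281 kb from the next. Lingo2, a leucine-rich repeat adhesion gene, had regions at chr4:36550350-36550918 and chr4:36270609-36270969, of 569 and 361 bp, that lay 279 and 273 kb from the next. In Dpp10, a region of 102 bp at chr1:123414259-123414360 lay 279 kb from the next.

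The longest stretches without any atlas region, of any width, spanned much of some genes. The longest was 726 kb in Nrg3, or 65.5% of the gene. Other long stretches measured 635 kb in Fstl5 (99.9% of the gene), 557 kb in Ctnna3, an alpha-catenin gene, and 547 kb in Dpp10. The median longest stretch was 228 kb, or 28.8% of the gene.

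The closest groups of 3 regions spanned about 1 kb. In Etl4, 3 regions of 124, 74 and 168 bp lay at chr2:20737383-20738109, over 0.727 kb. In Malrd1, 3 regions of 259, 169 and 100 bp lay at chr2:15580933-15581911, over 0.979 kb. Groups at chr5:27453379-27454671 in Dpp6, chr5:81518884-81520243 in Adgrl3, which encodes the adhesion receptor latrophilin-3, and chr12:41386350-41387741 in Immp2l, a mitochondrial peptidase gene, spanned 1.29, 1.36 and 1.39 kb. Runs of 3 neighbouring regions within 10 kb occurred 134 times and took in 324 regions. Etl4 had 13 such runs, Pde4d 7, and Cntnap2 and St6galnac3 6 each.

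Over 100 kb, the most regions in a gene were 17 in Etl4, followed by 12 in Ank2 and in the protocadherin locus, and 11 in Cntnap2, Pde4d, St6galnac3 and Dlgap1, the gene of a postsynaptic scaffold. Cntnap2 joins both features, with 9 of its 31 regions in the 100 kb next to its far end and a stretch of 347 kb without any region elsewhere. In Pde4d the longest empty stretch was 191 kb in 1302 kb.

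**Figure D5:**
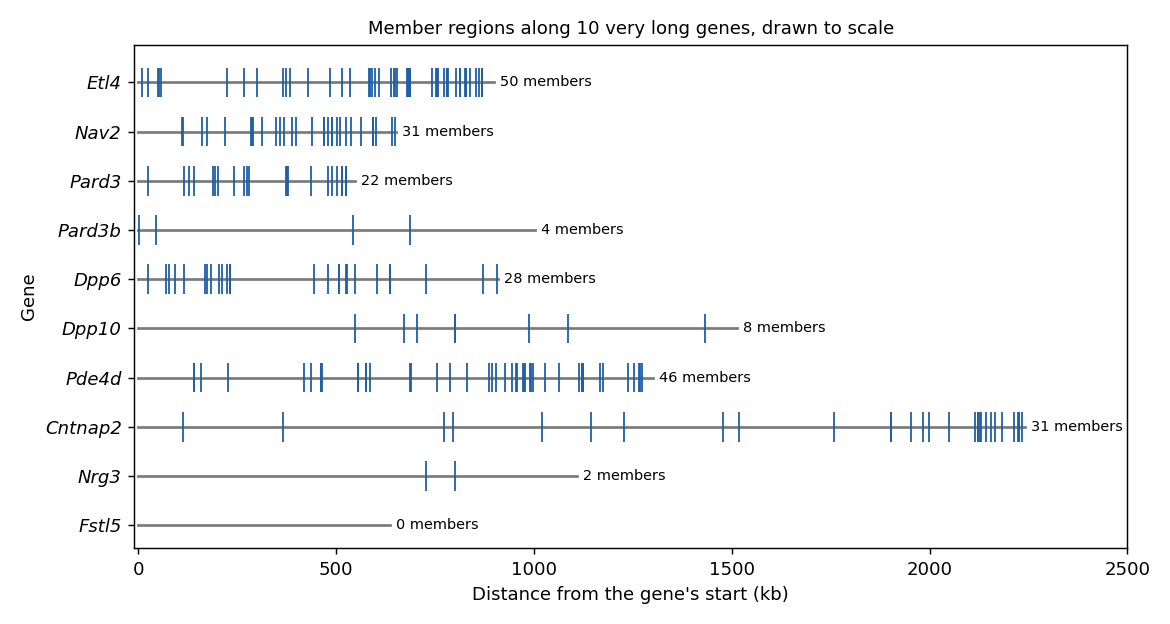
Positions of the regions (blue ticks) along 10 very long genes drawn to scale (grey lines), by distance in kb from the gene's start (horizontal axis). Etl4, Nav2, Pde4d and Cntnap2 have more ticks towards their far end, Pard3 and Dpp6 hold 22 and 28 regions against 4 and 8 in Pard3b and Dpp10, and Nrg3 and Fstl5 hold 2 and 0.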

How the data were processed

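ATAC-seq regions of 8 libraries were analysed from 1 atlas. The authors deposited a start and an end in base pairs for each region, with no count, score or other measurement. Per the submitters' processing notes, the tools were MACS2 (version 2.1.1), Bowtie2, cutadapt, bedtools, SAMtools and Picard, on GRCm38 (mm10). Parameters, the Tn5 shift, blacklisting and how libraries were merged: not given in the sources used here. Total RNA is the molecule in the labels, but the titles and protocol, which describe ATAC-seq, were followed.

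Members were chosen by overlap of at least 1 bp with a very long gene, with Python 3.11.15, pandas 2.3.3, NumPy 2.4.6 and SciPy 1.17.1. Densities were divided by the length in which a member could lie, which is the union of very long genes without 1 kb to either side of every protein-coding gene limit. Where genes were pooled by position or by their start, members and length in several very long genes counted once for each gene. Exact Poisson intervals were used for densities, exact binomial intervals for their ratios and Wilson intervals for shares. Strands and start windows were matched by gene ID for 169 of 216 genes. The code that chose members and measured the searched length was tested on simulated data (6621 regions, 0 disagreements). Start windows, positions along genes, flanks and spacing were not part of this test. The members, gene lists and rules were chosen with earlier results of these data known. Named genes were the 10 densest and 10 sparsest, the 5 with the most members, the 5 longest, the 5 with the longest empty stretch, the 5 with the most members in 100 kb and the extremes of each list. Others were named after their values were seen, and some genes that meet the rule are not reported here. Regions on sex chromosomes were left out. No comparison between groups was made, and replicates were not averaged. Alternatives varied gene length, width, distance, gene type, overlap and the genes included.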

Additional observations from a re-analysis of the deposited data

How the results depend on the processing

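Of 135 alternative values of the main results, 112 stayed within the interval or within 1.5 times of the value reported, and 23 moved further. Some of these could not move. Asking for the centre of the region inside the gene changes nothing, because the distance rule already places each region wholly inside. Leaving out windows of 100 kb with 20 or more regions removed none of the set. It therefore left the single-gene densities unchanged, and only the ratio to shorter genes changed (0.475). No ratio whose interval leaves out 1 crossed 1. The ratio between genes with and without a region at the start, 1.01 as reported with an interval across 1, fell below 1 over 750 kb (0.954), without a width limit (0.994), without Etl4 (0.979) and over 1000 kb. With gene length over 400, 750 and 1000 kb, density was 14.8, 12.7 and 11.3 per Mb and 2, 0 and 0 genes had no region. Over 750 and 1000 kb the set held 1446 and 825 regions, with ratios to shorter genes of 0.444 and 0.405. Over 750 kb, the ratio within 100 kb of a limit was 1.52. Over 1000 kb, the ratio between genes with and without a region at the start was 0.843, and that of the first 10 kb to the next 15 kb was 19.98 (fewer genes enter, and the cause was not tested). With no upper limit of width, density was 15.2 per Mb and median width 258 bp. With a width under 300 bp there were 1574 regions, 8.77 per Mb, a median of 162 bp and 3 genes without a region. Beyond 5 kb from every gene limit, the ratio to shorter genes was 0.495, that of the first 10 kb to the next 15 kb 3.25, and 2 genes had no region. With a distance of 200 kb in place of 100 kb, the ratio near a limit was 1.28. Of 120 alternative densities of the 20 densest and sparsest genes, 10 moved outside their interval, 9 of them with the width under 300 bp. The ratios at the start, the share nearer the far end and the single genes were added after the data were seen. No paired analysis was possible because no library has values of its own. Depth is unknown, so a gene or stretch without a region may hold open chromatin that was not detected.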

Other observations

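The parts of very long genes that shorter protein-coding genes also cover (88 genes) held 50 regions, or 33.4 per Mb (24.8 to 44.0), 2.43 times the density elsewhere in very long genes (1.80 to 3.21). The protocadherin locus of Gm37013 holds 58 of these genes and 29 of these regions. Without it, the other 30 genes held 21 regions, or 18.8 per Mb (11.7 to 28.8), and the ratio was 1.37 with an interval that includes 1 (0.849 to 2.11). Parts covered by long noncoding RNA genes (359 genes) held 127 regions, or 17.6 per Mb, 1.28 times the density elsewhere (1.06 to 1.53), or 1.29 times without that locus. Pseudogenes (215) held 10 regions, or 25.5 per Mb, with an interval of the ratio from 0.882 to 3.39.

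Among chromosomes, density inside very long genes ran from 9.61 per Mb on chromosome 4 (12 genes) to 20.5 on chromosome 13 (11 genes), apart from 30.2 on chromosome 18, where 5 genes include the 3 that share the protocadherin locus. With the 216 genes ranked by density in 3 equal groups, from lowest to highest, the median width of the regions was 249.5, 230.5 and 234 bp. Among genes of known strand, 71.7%, 67.9% and 75% had a region at the start, and the median density of the flanks was 15.3, 21.1 and 25.1 per Mb.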
